A study of Homo sapiens with 4 samples.

Results

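HCT116 is an established human colon cancer cell line, and its transcriptome was compared here between cells grown as spheroids and cells grown attached to the dish. The comparison uses 2 of the 4 libraries of the series, 1 adherent and 1 spheroid library, and the other 2 are the same pair from the colon cancer line LOVO. Genes were chosen by level alone: of the 58735 genes in the deposited table, the 14037 with a mean FPKM (reads on a gene scaled by its length and by the size of the library) of at least 1 over the 2 HCT116 libraries were compared, and 11420 of them were protein-coding. The adherent HCT116 cells were WT by genotype label, were kept in RPMI-1640 with fetal bovine serum and received no treatment. The HCT116 spheroids were also labelled WT, but their growth form, medium and treatment all differed from those of the adherent cells. Per the methods of the study, they formed in ultralow-attachment dishes in serum-free DMEM/F12 with B27, N2, basic FGF and EGF. The results text of the study adds the platinum drug oxaliplatin at 1 μg/ml, while the sample label reads 1mg/ml and names no drug. The effects of these 3 changes, serum withdrawal among them, cannot be told apart in this design. Each condition was 1 library, so no difference has a replicate check and no p-value is given.

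Spheroids are floating clusters of cells used to enrich for cells with stem-like traits. Dividing cells switch on a set of genes for copying DNA and another for mitosis, and both are silenced when cells leave the cycle. Cells short of amino acids or with misfolded protein in the endoplasmic reticulum (ER) switch on the transcription factor ATF4 and its targets, and growth factors in serum switch on immediate early genes such as FOS and EGR1 within minutes. Most colon cancer lines carry a WNT pathway that is permanently active, which drives a further set of target genes.

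A difference is given here as the log2 fold change, log2(FPKM + 1) in spheroids minus the same in adherent cells, so a negative value is lower in spheroids. The added 1 shrinks the change of weakly expressed genes. Beside it stands, for leading genes, the exact 95% interval of the log2 ratio of reads, which leaves out the added 1, covers counting error only and compares these libraries, not the conditions. The word lower or higher, used of a count, means past log2 1 in size. A gene below 1 FPKM in 1 library passes the level filter only through the other library, which fixes the sign of its difference. The libraries held 20429147 reads on genes (adherent) and 15483569 (spheroids). The library sizes that the FPKM imply were 20382500 and 16801000, which are 0.998 and 1.085 times these reads. Genes of the mitochondrial genome took 6.77% of reads in adherent cells and 11.1% in spheroids, and the cytosolic ribosomal protein genes took 6.27% and 4.62%. Highly expressed genes and short protein-coding genes were shifted down as groups: the median log2 fold change was 0.13 in the 10% of genes with the lowest mean FPKM and -0.33 in the 10% with the highest, and it was -0.19 in the shortest 10% of protein-coding genes and 0.09 in the longest. The part of library composition and gene length in the differences below was not tested.

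The epithelial identity of the cells was read from 12 colorectal epithelial markers, of which 7 passed the level filter. The keratins KRT19 (808 FPKM in adherent cells and 543 in spheroids), KRT8 (571 and 418) and KRT18 (253 and 206), the adhesion molecule EPCAM (85.6 and 79.3) and E-cadherin CDH1 (31.1 and 31.1) were well expressed in both libraries. The intestinal factor CDX2 stood at 3.84 and 3.12. Other markers of differentiated colon, VIL1, CDX1, GPA33, CEACAM5 and LGALS4, were below 0.2 FPKM in each library. KRT20, a keratin of differentiated colon, was the only marker of the 12 past log2 1, with 0.930 FPKM in adherent cells and 7.45 in spheroids (35 and 231 reads, 2.13). KRT20 passed the filter only through its spheroid value. Of 14 leukocyte, endothelial and fibroblast markers, only COL1A1 passed the filter, with 5.51 and 15.5 FPKM. PTPRC, CD3E, COL1A2, DCN and LUM were at or near 0.

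Most genes had similar levels in both libraries. The median log2 fold change over the 14037 genes was -0.04, the 5th and 95th percentiles were -0.85 and 0.78, and 73.9% of genes lay within 0.5 of 0. In all, 495 genes (3.53% of those compared) were lower and 367 (2.61%) were higher in spheroids. These shares are the comparison for every count of lower or higher list members below. Whether lower or higher genes were more numerous depended on the settings. With each library set to its reads on genes, 408 genes were lower and 507 higher, and with reads outside the mitochondrial genome 394 and 655. With 0.1 added in place of 1, the counts were 745 and 771. In TPM they were 979 and 1415, but there values grow, so the added 1 and the filter weigh less. At log2 2, the fold threshold named in the methods of the study, whose p threshold cannot be applied to 1 library a side, 75 genes (0.534%) were lower and 31 (0.221%) were higher. The lower genes were the better measured ones: 407 of 495 had at least 50 reads in the higher library against 219 of 367, and their median mean FPKM was 8.74 against 3.19. As a group the lower genes took 7.71% of reads in adherent cells and 2.80% in spheroids, and the higher genes took 0.706% and 2.03%. Among the higher genes, 177 of 367 were protein-coding, against 370 of 495 of the lower ones. Antisense RNAs and lincRNAs were higher in 5.70% and 6.27% of cases and protein-coding genes in 1.55%. The classes of short RNA had larger shares on both sides, with 23.2% of miRNA genes higher and 11.9% lower, 19.8% and 11.9% of snRNA genes, and 17.1% and 9.01% of misc_RNA genes. In all, 102 of the 367 higher genes had 3 or fewer adherent reads, and 64 of the 495 lower genes had 3 or fewer spheroid reads.

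Below DDIT3, which is described with the ATF4 targets, stood BOLA2B, with 479 reads in adherent cells and 6 in spheroids (-3.85). It is a near-identical copy of BOLA2 (7 and 6 reads), so its count is uncertain. DHRS2, a short-chain dehydrogenase, followed with 19.46 and 0.937 FPKM (2997 and 119 reads, -3.40), and the secreted neuropeptide precursor VGF stood at 55.7 and 8.23 FPKM (-2.62).

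**Figure D1:**
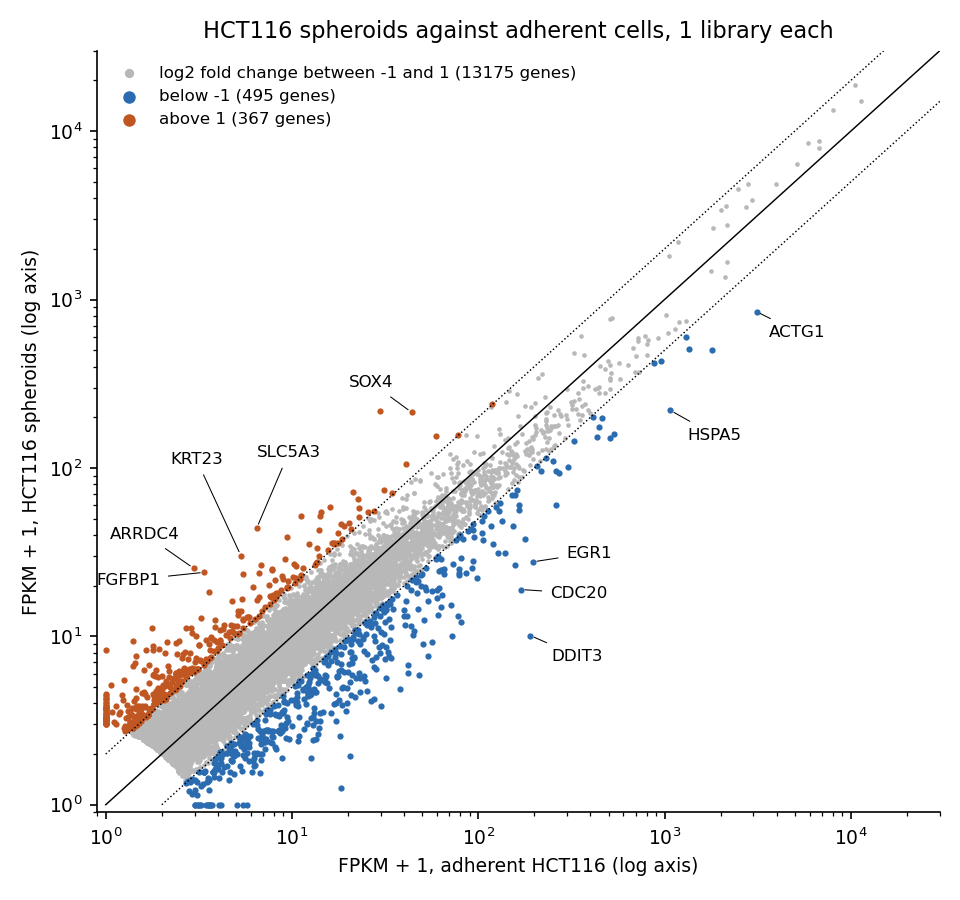
Each point is a gene, with FPKM + 1 in adherent HCT116 cells on the x axis and in HCT116 spheroids on the y axis, both on log axes, 1 library each. The solid line marks equal values and the dotted lines a log2 difference of 1; the 495 lower genes (blue) reach high expression (ACTG1, HSPA5), while most of the 367 higher genes (orange) are weakly expressed.

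The gene list with the lowest median was that of G2/M and mitosis. Of its 49 members compared, all lay below 0, 45 (91.8%, against 3.53% of all genes) were lower past log2 1, 18 were below -2, and the median was -1.89. The summed FPKM of the list went from 1352 in adherent cells to 359.0 in spheroids. In bulk RNA, fewer cells in a phase and less RNA per cell cannot be told apart.

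The regulators that move cells into and through mitosis were lower together. CDC20, the activator of the anaphase-promoting complex, had 168 FPKM in adherent cells and 18.0 in spheroids (6992 and 615 reads), a log2 fold change of -3.16 (interval of the read ratio -3.35 to -3.11). Its partner enzyme UBE2C stood at 71.6 and 9.07 FPKM (-2.85). A second ubiquitin-conjugating enzyme of that complex, UBE2S, which is in none of the lists, stood at 177 and 36.8 FPKM (-2.23). All 3 act in the ubiquitin step that starts anaphase. The transcription factors of the programme were low as well: MYBL2 went from 29.1 to 2.85 FPKM (-2.97) and FOXM1 from 11.1 to 2.08 (-1.97). The cyclins CCNB1 (58.7 and 15.9 FPKM, -1.82), CCNB2 (22.03 and 3.68, -2.30) and CCNA2 (23.3 and 4.79, -2.07) and their kinase CDK1 (30.9 and 7.62, -1.89) had lower values by similar factors. The proliferation marker MKI67 stood at 44.2 FPKM in adherent cells and 9.79 in spheroids (-2.07).

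Genes of the chromosome machinery were lower as well. AURKB, the kinase of the chromosomal passenger complex, stood at 26.5 and 3.27 FPKM (-2.69, interval -3.30 to -2.75), and its partner BIRC5 (survivin) at 40.9 and 5.79 (-2.63). PLK1, the polo kinase, stood at 19.7 and 3.50 FPKM (-2.20). At the kinetochore, SKA1 had 17.1 FPKM in adherent cells and 1.55 in spheroids (-2.83) and CENPW 25.4 and 3.14 (-2.67). The spindle protein TPX2 (62.7 and 16.7 FPKM, -1.85), topoisomerase TOP2A (32.6 and 8.51, -1.82) and the anillin gene ANLN (28.4 and 7.58, -1.77) were lower to a similar degree. Members that stayed within log2 1 were CKS2 (155 and 83.3 FPKM, -0.88), KIF18A (-0.61), ECT2 (-0.59) and the phosphatase CDC25B (34.2 and 29.1, -0.23), and PRC1 lay below the level filter.

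Many promoters of this programme carry a pair of short elements, the CCAAT box bound by NF-Y and the cell cycle homology region (CHR, letters TTTGAA), so promoter windows of 250 bases before to 50 after the RefSeq start were searched on both strands. The 3 windows below belong to the lowest G2/M members whose window held both elements, and capitals mark every CCAAT or TTTGAA match on either strand.
CDC20: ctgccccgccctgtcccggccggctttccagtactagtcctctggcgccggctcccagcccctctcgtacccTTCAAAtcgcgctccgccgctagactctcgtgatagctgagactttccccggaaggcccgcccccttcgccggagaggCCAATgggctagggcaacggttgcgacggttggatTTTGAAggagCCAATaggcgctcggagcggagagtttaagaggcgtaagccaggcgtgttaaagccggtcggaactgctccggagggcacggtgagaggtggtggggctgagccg
CCNB2: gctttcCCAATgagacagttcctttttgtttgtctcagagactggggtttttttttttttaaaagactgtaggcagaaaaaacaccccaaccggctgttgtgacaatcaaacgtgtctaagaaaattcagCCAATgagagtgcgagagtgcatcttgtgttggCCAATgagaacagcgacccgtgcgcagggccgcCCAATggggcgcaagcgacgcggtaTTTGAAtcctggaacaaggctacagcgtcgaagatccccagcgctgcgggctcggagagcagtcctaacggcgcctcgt
HMMR: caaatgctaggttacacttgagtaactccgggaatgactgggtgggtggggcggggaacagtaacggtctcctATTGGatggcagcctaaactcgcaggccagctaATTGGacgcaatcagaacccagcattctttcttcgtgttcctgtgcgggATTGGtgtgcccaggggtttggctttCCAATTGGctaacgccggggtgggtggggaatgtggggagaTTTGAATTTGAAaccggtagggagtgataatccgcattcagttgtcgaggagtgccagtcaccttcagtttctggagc
The CDC20 window (GRCh38.p14, chr1:43358731-43359030, plus strand) held 2 CCAAT and 2 CHR matches, with CCAAT starting 100 and 55 bases before the start site and a CHR 65 bases before it. The CCNB2 window (chr15:59104896-59105195, plus strand) held 4 CCAAT boxes and a CHR 29 bases before the start. In HMMR (chr5:163460382-163460681, plus strand), which encodes a spindle-associated hyaluronan receptor, 2 CHR matches stood side by side 28 and 22 bases before the start, and 2 of the CCAAT matches overlap because the letters read the same way on both strands.

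Across the 9619 compared genes with a window, the CHR letters were found in 8.94%. The share was 26.9% (83 of 308) among genes lower in spheroids, 7.09% (10 of 141) among genes higher in spheroids and 69.0% (29 of 42) in the G2/M list. Lower genes outside the G2/M list still had the letters in 21.1% of windows (57 of 270). The position differed too: 75.0% of the 40 CHR matches in the G2/M list began within 100 bases before the start site or after it, with a median start at -28.5, against 34.7% of the 829 matches in genes within log2 1, whose median start was -149. CCAAT matches were present in 60.1% of windows of lower genes, 36.9% of higher genes and 36.8% of all. Over all 27305 genes with a RefSeq window, compared or not, the CHR letters were found in 15.4%. The median GC content of windows was 62.0% in the G2/M list, 64.0% in lower genes, 64.0% in higher genes and 66.0% in all compared. The part of base content in these shares was not tested. The letters are a description of the windows, and MYBL2, AURKB and KIF2C, among the lowest of the list, had windows without the pair.

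DNA replication genes were lower as well, with a median of -1.27 over 40 members, 28 of them (70.0%) past log2 1 and 39 below 0. The ribonucleotide reductase subunit RRM2, which makes deoxyribonucleotides, had the lowest value, 18.5 FPKM in adherent cells and 2.62 in spheroids (-2.43, interval -3.02 to -2.62). Thymidine kinase TK1, an S-phase enzyme and the most expressed member, stood at 137 and 30.3 FPKM (-2.15). The licensing factors CDT1 (33.1 and 6.42 FPKM, -2.20) and CDC6 (21.1 and 4.63, -1.97) were lower too. The 6 subunits of the MCM helicase were uneven: MCM4 (-1.61), MCM2 (-1.40), MCM7 (-1.39) and MCM5 (-1.23) were past log2 1, and MCM6 (-0.90) and MCM3 (-0.87) were not. The sliding clamp PCNA went from 101 to 56.5 FPKM (-0.82). The large polymerase subunits lay nearer to 0 (POLE -0.55, POLD1 -0.40, POLA1 -0.35), and the G1 cyclins CCNE2 (-0.10) and CCNE1 (9.12 and 11.8 FPKM, 0.34) were not lower.

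The replication windows differed from the mitotic ones in their letters. TTCCCGC, a core of sites bound by E2F factors, was found in 44.1% of them (15 of 34), against 11.9% of the G2/M windows and 10.6% of all, while the CHR letters were found in 1 of 34. The window of CDT1 (GRCh38.p14, chr16:88803539-88803838, plus strand) is shown as the lowest member with a match, with both matches in capitals.
CDT1: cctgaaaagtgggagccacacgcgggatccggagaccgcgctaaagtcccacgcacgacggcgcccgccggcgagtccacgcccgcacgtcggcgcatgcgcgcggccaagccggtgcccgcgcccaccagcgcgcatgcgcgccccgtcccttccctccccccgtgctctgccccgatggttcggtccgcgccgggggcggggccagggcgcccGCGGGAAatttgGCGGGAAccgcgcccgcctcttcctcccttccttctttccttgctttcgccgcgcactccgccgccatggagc
The 2 matches lie 35 and 23 bases before the start, on the strand opposite to the gene.

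Replication-dependent histone genes, whose mRNAs normally lack the poly(A) tail, differed from the replication list in sign. Of 57 listed, 11 passed the filter, 5 of these were higher and 1 was lower, and the median was 0.88. Over the 42 with at least 1 read it was 0.33. HIST1H2BD stood at 8.45 FPKM in adherent cells and 38.1 in spheroids (2.05, interval 1.91 to 2.44), HIST1H2BK at 12.9 and 41.7 (1.62) and HIST1H1C at 21.8 and 40.9 (0.88). The lower member, HIST2H2AC, rests on 15 and 1 reads. The other 46 were below the filter, 15 of them at 0 reads in both libraries.

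Genes for repair of DNA crosslinks, the lesions platinum drugs make, divided into lower and level members. Of 29 compared, 9 were lower (31.0%, against 3.53% of all genes) and none was higher (2.61% of all), with a median of -0.36. The lower ones were the exonuclease EXO1 (5.81 and 0.834 FPKM, -1.89), EME1 (-1.59), FANCD2 (-1.46), the ubiquitin enzyme UBE2T of the Fanconi pathway (30.7 and 11.2, -1.38), BRCA1 (-1.38), FANCI (-1.30), BLM (-1.26), FANCG (-1.21) and RAD54L (-1.12). The nucleotide excision factors ERCC1 (16.04 and 13.2 FPKM, -0.26), ERCC2 (0.05), ERCC3 (0.23) and ERCC4 (0.32) stayed within 0.5. None of the 6 mismatch repair genes compared was past log2 1, with MLH3 highest (0.43).

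The p53 targets, induced in many cells by DNA damage, had a median of -0.07 over 37 members, which changed sign with the scaling (0.03 with each library set to its own total of reads). Of these members 8.11% were higher and 5.41% lower, against 2.61% and 3.53% of all genes. CDKN1A, the cell cycle inhibitor p21, stood at 202 FPKM in adherent cells and 201 in spheroids. The cytokine GDF15 stood at 232 and 214 FPKM (-0.12) and the p53 ligase MDM2 at 9.82 and 14.4 (0.51). Past log2 1 were TP53INP1 (12.6 and 32.3 FPKM, 1.29), the oxidoreductase TP53I3 (4.48 and 11.7, 1.21) and KITLG (118 and 237, 1.00) on the higher side, and SESN2 (38.8 and 12.3, -1.59) and GADD45A (124 and 57.6, -1.09) on the lower side. SESN2 is also listed among ATF4 targets. In the BCL2 family none of 13 members was past log2 1: the death-promoting PMAIP1 had -0.85 (65.3 and 35.9 FPKM), the survival gene BCL2L1 0.64 (44.4 and 69.9) and MCL1 -0.45.

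On the log2(FPKM + 1) scale, the largest fold change in either direction was that of DDIT3 (CHOP), the stress transcription factor downstream of ATF4. It went from 189 FPKM in adherent cells (5042 reads) to 9.11 in spheroids (200 reads), a log2 fold change of -4.23 (interval -4.59 to -4.17). Its exons share 105 bases with other annotated genes on the same strand and 413 with genes on the opposite one, and the microRNA gene MIR616 lies within it (93 and 8 reads, -3.02). Its rank rests on the added 1: with a pseudocount of 0.1, BOLA2B (-5.58) and CALB1 (4.71) exceeded it (-4.36). Of the 37 ATF4 targets compared, 22 (59.5%) were lower, 11 were below -2, none was higher, and the median was -1.28.

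The lower ATF4 targets covered several roles. ATF4 itself stood at 291 FPKM in adherent cells and 149 in spheroids (-0.96). Among its regulators, the pseudokinase TRIB3 went from 49.7 to 8.01 FPKM (-2.49), ATF3 from 76.8 to 12.3 (-2.55) and the phosphatase subunit PPP1R15A (GADD34), which ends the stress response, from 61.9 to 13.9 (-2.08). CHAC1, which degrades glutathione, went from 41.2 to 5.06 FPKM (-2.80, interval -3.26 to -2.80). The enzymes of amino acid synthesis were lower too: asparagine synthetase ASNS stood at 11.9 and 1.42 FPKM (-2.42), the serine pathway enzymes PSAT1 at 126 and 30.4 (-2.01) and PHGDH at 23.0 and 8.91 (-1.28), and the mitochondrial folate enzyme MTHFD2 at 92.6 and 26.9 (-1.74). The amino acid carriers SLC7A5 (260 and 58.8 FPKM, -2.12), its partner SLC3A2 (91.5 and 24.6, -1.86) and the cystine carrier SLC7A11 (11.98 and 1.96, -2.13) were lower, while the neutral amino acid carrier SLC38A2 (139 and 146, 0.08) was level and the cysteine enzyme CTH (8.58 and 14.03, 0.65) lay above 0.

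The ATF4 element, searched as TGATGNAA on both strands, was rare: 1.55% of all windows held it, 4.55% (14 of 308) of lower genes, none of 141 higher genes, and 21.9% (7 of 32) of the ATF4 list. Lower genes outside the ATF4 list held it in 2.43% of windows (7 of 288), nearer to the share of all windows. The windows of CHAC1 (GRCh38.p14, chr15:40953221-40953520, plus strand) and HERPUD1 (chr16:56931892-56932191, plus strand), the 2 lowest members with a match, are printed with the element in capitals.
CHAC1: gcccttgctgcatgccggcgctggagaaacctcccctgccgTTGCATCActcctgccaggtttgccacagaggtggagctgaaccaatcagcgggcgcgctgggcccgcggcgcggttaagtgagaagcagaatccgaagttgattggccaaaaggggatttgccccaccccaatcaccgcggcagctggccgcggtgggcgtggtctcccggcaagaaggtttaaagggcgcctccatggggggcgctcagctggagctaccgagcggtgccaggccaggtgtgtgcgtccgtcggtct
HERPUD1: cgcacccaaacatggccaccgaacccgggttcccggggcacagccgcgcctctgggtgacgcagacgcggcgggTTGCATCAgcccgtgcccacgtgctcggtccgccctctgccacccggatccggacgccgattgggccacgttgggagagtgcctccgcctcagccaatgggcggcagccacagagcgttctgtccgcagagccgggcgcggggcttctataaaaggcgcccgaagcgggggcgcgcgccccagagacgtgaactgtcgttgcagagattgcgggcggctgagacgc
In both, the same 8 letters lie on the strand opposite to the gene, 209 bases before the start in CHAC1 and 176 in HERPUD1. The DDIT3 window had no match, which says only that these letters are not in it.

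All 20 cytosolic aminoacyl-tRNA synthetases, which load amino acids onto tRNAs, lay below 0, with a median of -0.68 and 5 past log2 1: AARS (133 and 47.4 FPKM, -1.47), GARS (79.7 and 28.0, -1.47), YARS (-1.39), WARS (-1.14) and SARS (-1.03). The member nearest to 0 was RARS (43.3 and 41.1 FPKM, -0.07). ER chaperones and unfolded protein response genes had a median of -0.57, with 25 of 26 below 0 and 7 lower. HSPA5 (BiP), the main ER chaperone, went from 1073 FPKM to 219 (85477 and 14359 reads), a log2 fold change of -2.29 (interval -2.32 to -2.27). HERPUD1, which serves ER-associated degradation, went from 79.4 to 11.1 FPKM (-2.73), and its intronic RNA AC012181.2 from 143 to 9 reads. The folding enzymes PDIA4 (303 and 100 FPKM, -1.58), CALR (433 and 152, -1.51) and HSP90B1 (444 and 175, -1.34) were lower, while the transcription factors XBP1 (28.2 and 21.8, -0.36) and ATF6 (12.8 and 8.71, -0.51) lay nearer to 0. In the cytosol, 4 of 21 heat shock genes were lower (DNAJB1 -1.57, HSPA1A -1.39, HSPA1B -1.35 and HSPD1 -1.01), and HSPA8 (230 and 211, -0.13) was near 0. HSPA1A and HSPA1B are near-identical copies, so their split is uncertain.

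**Figure D2:**
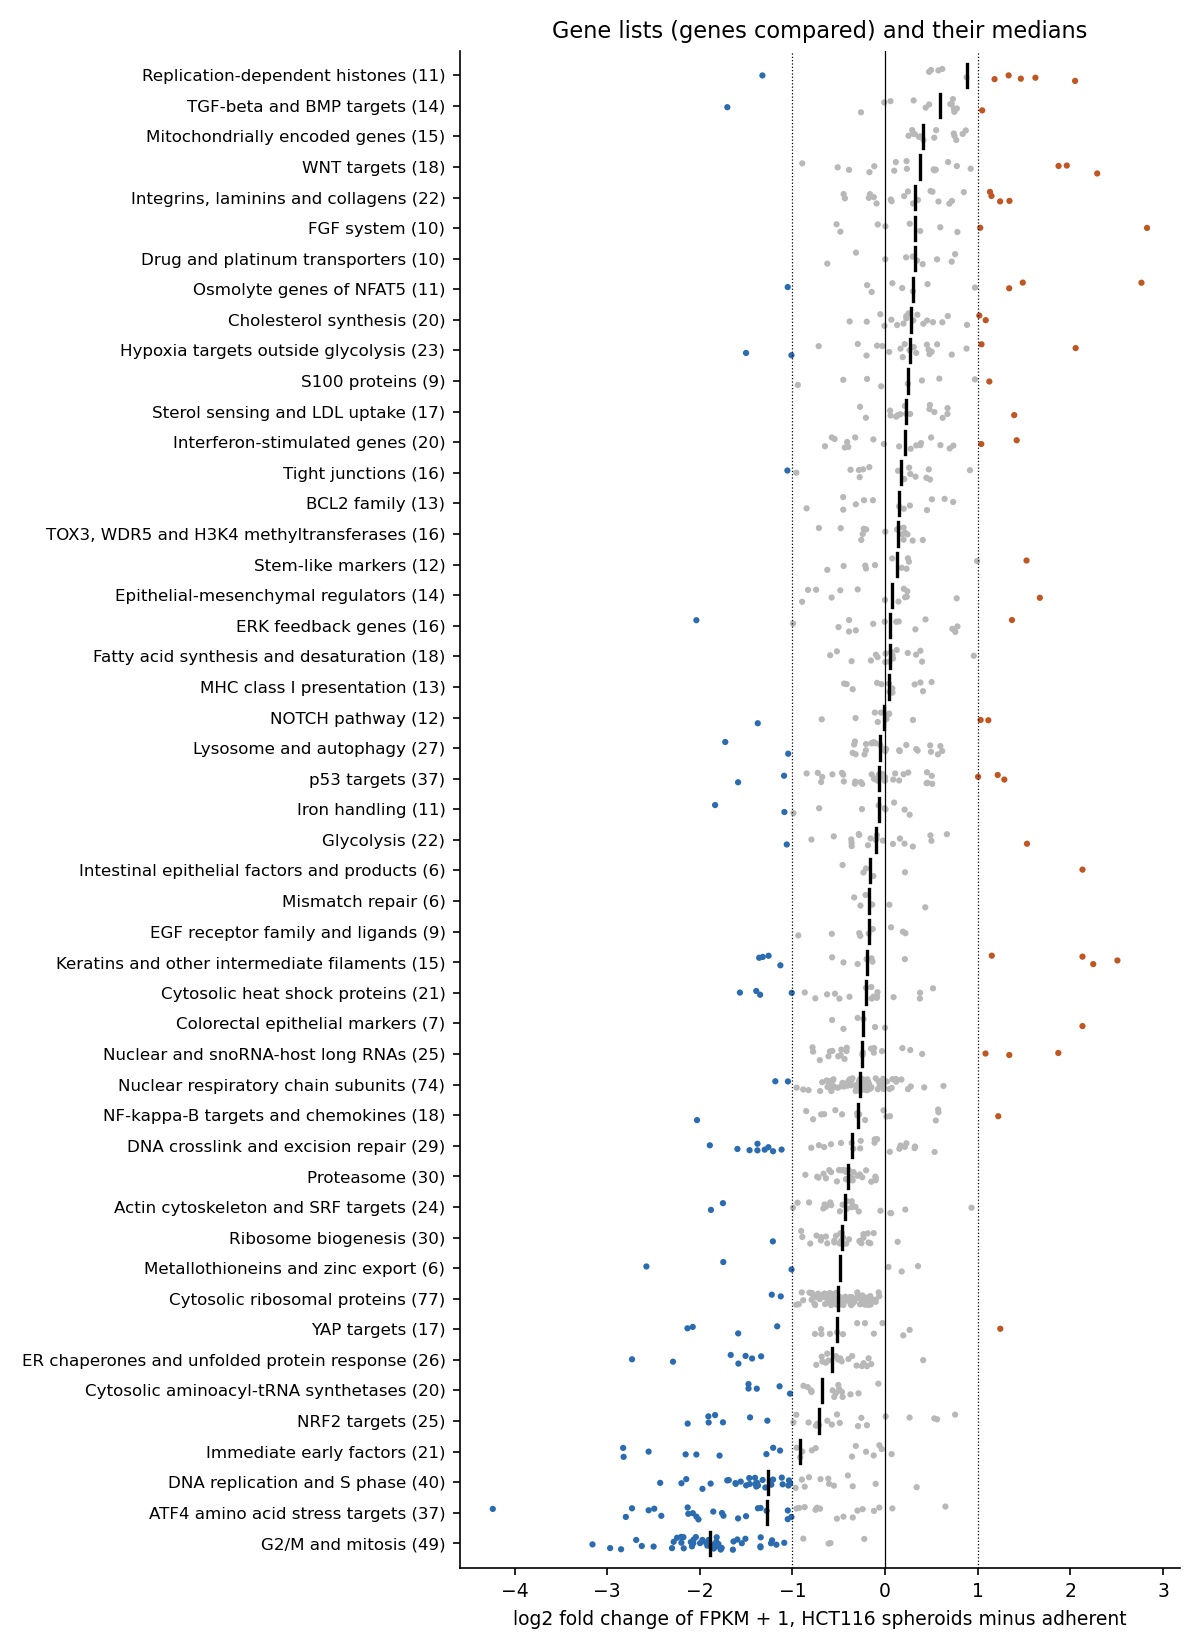
Each point is a gene, placed by its log2 fold change of FPKM + 1 (HCT116 spheroids minus adherent, x axis) in the row of its list, with the number of genes compared in brackets, for lists with 5 or more. Black bars are list medians, from -1.89 (G2/M and mitosis) to 0.88 (replication-dependent histones), and dotted lines mark -1 and 1.

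Targets of NRF2, the regulator of antioxidant genes, had a median of -0.71 with 7 of 25 lower. Ferritin light chain FTL, an iron store and the most expressed member, went from 1801 FPKM to 504 (-1.84), thioredoxin reductase TXNRD1 from 152 to 44.5 (-1.75) and the quinone reductase NQO1 from 163 to 58.9 (-1.46). Sulfiredoxin SRXN1 (21.9 and 5.10 FPKM, -1.91), OSGIN1 (-1.90) and the haem oxygenase HMOX1 (21.7 and 8.41, -1.27) completed the lower members with SLC7A11. The export pumps of the list lay above 0 (ABCC2 0.76, ABCC3 0.56). The autophagy receptor SQSTM1 was lower (78.1 and 22.9 FPKM, -1.73), the exception with MAP1LC3B (-1.05) in a lysosome and autophagy list with a median of -0.05. Metallothioneins, which bind zinc and copper, included MT1E (157 and 25.4 FPKM, -2.58) and MT2A (507 and 150, -1.75), while MT1F (3.56 and 4.16, 0.18) was not lower. Metallothionein genes are close copies, so reads may be divided between them unevenly.

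Immediate early genes had a median of -0.92 over 21 members, 9 of them lower and 5 below -2. EGR1 went from 196 FPKM to 26.7 (12508 and 1407 reads, -2.83, interval -2.95 to -2.79) and FOS from 52.9 to 6.62 (-2.82). ZFP36, which destabilises inflammatory mRNAs, went from 97.6 to 21.2 FPKM (-2.15), FOSL1 from 50.4 to 11.5 (-2.04) and JUN from 94.0 to 38.1 (-1.28). MYC stood at 107 and 57.2 FPKM (-0.89), and JUND (109 and 105, -0.06), FOSL2 (0.07) and KLF6 (-0.12) were near 0. The feedback genes of the ERK kinase cascade, which relays growth factor signals, had other values: their median was 0.06, with the phosphatase DUSP6 higher (40.0 and 105 FPKM, 1.37), SPRY4 at 0.33, DUSP5 at -0.99 and FOSL1 the lone lower member. Of the EGF receptor family, EGFR stood at 18.8 and 15.3 FPKM (-0.28) and the ligand AREG at 332 and 223 (-0.58).

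Genes of cell shape and adhesion tension were partly lower. The cytoplasmic actins had the lowest values of their list: ACTG1 went from 3116 FPKM to 846 (190112 and 42541 reads, -1.88) and ACTB from 531 to 157 (-1.75). Filamin FLNA (144 and 74.2 FPKM, -0.95) and SRF (23.7 and 11.4, -0.99) lay just inside log2 1, and the remaining members of a 24-gene actin list with a median of -0.44 ranged up to CALD1 (5.95 and 12.3, 0.93). YAP targets, which respond to stretch and attachment, had a median of -0.52. CYR61 (43.4 and 9.12 FPKM, -2.13) and CTGF (26.6 and 5.55, -2.08) were lower with GADD45B (-1.59) and the receptor AXL (-1.17), AMOTL2 (-0.76) and ANKRD1 (-0.60) lay nearer to 0, and IGFBP3 was higher (1.28 and 4.39, 1.24). The nuclear lamins were lower together: LMNA stood at 116 and 44.5 FPKM (-1.36), LMNB1 at 23.0 and 8.62 (-1.32) and LMNB2 at 81.9 and 36.8 (-1.13).

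The translation machinery shifted by a small amount in nearly every member. All 77 cytosolic ribosomal protein genes lay below 0, with a median of -0.50, but only RPSA (459 and 196 FPKM, -1.22) and RPS2 (1304 and 597, -1.13) were past log2 1. Ribosome biogenesis factors had a median of -0.47 (29 of 30 below 0), led by fibrillarin FBL (128 and 54.7 FPKM, -1.21). All 30 proteasome genes lay below 0 with a median of -0.40 and none past log2 1, and 63 of 74 nuclear-encoded respiratory chain subunits lay below 0 (median -0.27). These genes are short and well expressed, like the groups shifted down above. With the median of equally long protein-coding genes subtracted, the medians were -0.38 for ribosomal proteins, -0.31 for ribosome biogenesis, -0.32 for the proteasome and -0.11 for the nuclear respiratory chain. The 15 genes of the mitochondrial genome went the other way, all above 0, from 0.25 (MT-ND4L, 6702 and 7983 FPKM) to 0.87 (MT-CYB, 2477 and 4528), with MT-CO1, the most expressed gene of the spheroids, at 10466 and 18693 (0.84).

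Among the 20 highest genes with at least 50 reads, ARRDC4, an arrestin-domain gene known for induction by glucose-sensing factors, came first: 1.96 FPKM in adherent cells and 24.4 in spheroids (163 and 1667 reads, 3.10, interval of the read ratio 3.40 to 3.87). Its relative TXNIP, with a like regulation, had 1 and 2 reads. FGFBP1, a carrier that releases FGF ligands from the matrix, stood at 2.38 and 23.0 FPKM (2.83), while the FGF receptors ranged from -0.52 (FGFR2, 8.02 and 5.27 FPKM) to 0.38 (FGFR4, 22.9 and 30.01) and the ligand FGF9 was higher from a low level (0.540 and 2.14, 1.03). FGF9 passed the filter only through its spheroid value. The protease inhibitor A2M stood at 0.400 and 8.41 FPKM (2.75), with an antisense gene that shares 561 bases of its exons. The serine protease-like PRSS35 stood at 0.643 and 7.24 (2.33), SERPINA5 at 1.88 and 10.2 (1.96) and the calcium buffer CALB1 at 9 and 496 reads (2.27). The water and glycerol channel AQP3 stood at 10.1 and 50.7 FPKM (2.22).

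**Figure D3:**
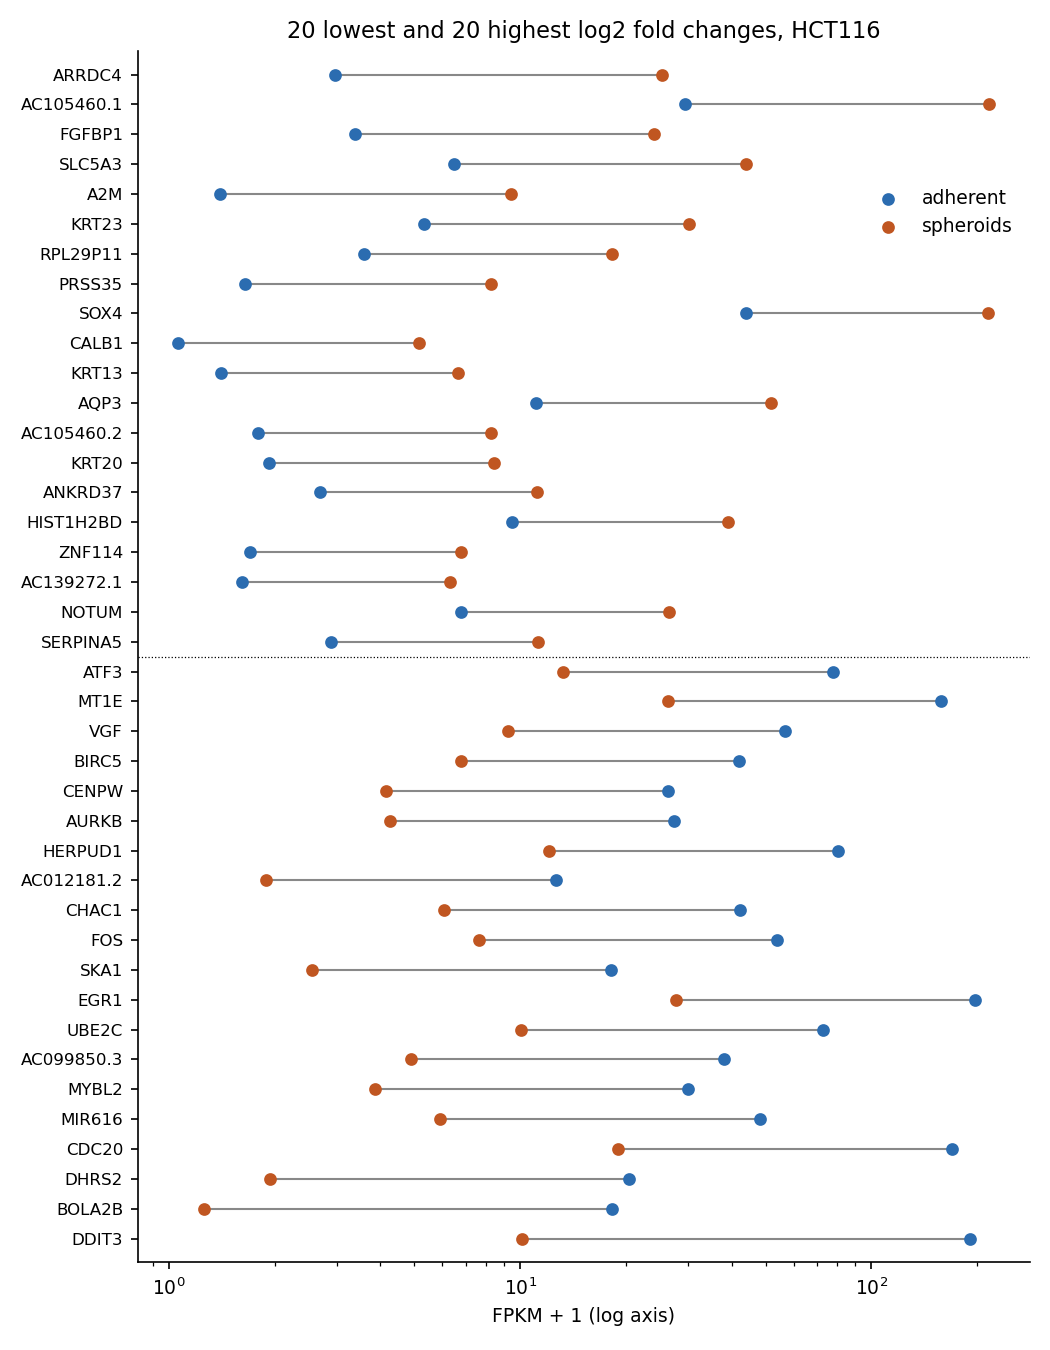
FPKM + 1 on a log axis in adherent cells (blue) and spheroids (orange), 1 library each, for the 20 highest and 20 lowest log2 fold changes among genes with at least 50 reads in the higher library. The lower genes start from higher levels, up to EGR1 and DDIT3 at 196 and 189 FPKM in adherent cells, while 18 of the 20 higher genes start at or below AQP3 with 10.1 FPKM.

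Keratins and other intermediate filament genes had 4 higher and 4 lower members among 15. The lower members include nuclear lamins already given above, with LMNA the lowest (-1.36). KRT23 stood at 4.31 FPKM in adherent cells and 29.2 in spheroids (2.51, interval 2.57 to 2.96), KRT13 at 0.404 and 5.66 (2.25) and the intestinal differentiation keratin KRT20 at 0.930 and 7.45 (2.13). KRT13 and KRT20 passed the filter only through their spheroid values. The abundant keratins of simple epithelium, KRT19 (-0.57), KRT8 (-0.45) and KRT18 (-0.30), were a little lower, and KRT80 was past log2 1 (10.5 and 3.80 FPKM, -1.26). Intermediate filament NES was higher (8.56 and 20.2 FPKM, 1.15) and vimentin VIM stayed below 0.25 FPKM in both. The epithelial transcription factor EHF was higher (5.15 and 18.6 FPKM, 1.67). CDH1 was level, and SNAI1 (21.2 and 11.5 FPKM, -0.83), SNAI2 (-0.75) and the splicing factor ESRP1 (41.3 and 21.7, -0.90) lay below 0 without passing log2 1. Of the matrix and its receptors 4 of 22 were higher and none lower: COL6A1 (30.2 and 72.8 FPKM, 1.24), COL1A1 (1.34), COL7A1 (1.05 and 3.53, 1.15) and the integrin ITGB8 (0.971 and 3.32, 1.13). ITGB8 passed the filter only through its spheroid value. ITGB1, the most expressed, stood at 101 and 120 (0.25).

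WNT target genes had a median of 0.38 over 18 members, with 3 higher (16.7%, against 2.61% of all genes) and none lower. Without the level filter the median was 0.23 over 21 members. SOX4, a progenitor transcription factor, went from 42.8 FPKM to 213 (5106 and 20948 reads, 2.29, interval 2.27 to 2.36). The secreted WNT inhibitors NOTUM (5.80 and 25.5 FPKM, 1.96) and DKK4 (0.220 and 3.46, 1.87) were higher, but DKK4 passed the filter only through its spheroid value. The feedback gene AXIN2 lay just inside log2 1 (3.02 and 6.63, 0.92). DKK1 (190 and 133 FPKM, -0.51), CCND1 (158 and 121, -0.39) and MYC (-0.89) lay below 0. The stem cell targets LGR5, ASCL2, LEF1 and PROX1 were under 0.1 FPKM in both libraries. BMP signalling genes lay mostly above 0, with a median of 0.59 over the 14 members of the TGF-beta and BMP list: BMP4 stood at 69.4 and 119 FPKM (0.77), its targets ID1 at 218 and 360 (0.72) and ID2 at 54.8 and 91.7 (0.73), and the decoy receptor BAMBI at 8.40 and 18.4 (1.05). In the NOTCH pathway the ligand JAG1 (12.9 and 29.1 FPKM, 1.11) and the receptor NOTCH3 (12.4 and 26.4, 1.03) were higher, the target HES4 was lower (64.6 and 24.3, -1.37) and HES1 was level (12.99 and 12.2).

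Smaller metabolic groups had a few members past log2 1. The myo-inositol carrier SLC5A3, an osmolyte gene, stood at 5.47 and 43.0 FPKM (2.77), and MRPS6, within whose locus it lies and with which it shares 273 exon bases on the same strand, stood at 5.61 and 22.7 (1.84), so reads of the 2 genes may be mixed. Aldose reductase AKR1B1 (17.3 and 45.4 FPKM, 1.34) and the betaine carrier SLC6A12 (0.102 and 2.09, 1.49) were also higher, and the taurine carrier SLC6A6 (26.7 and 37.1, 0.46) less so. SLC6A12 passed the filter only through its spheroid value. In cholesterol synthesis 16 of 20 genes lay above 0 with a median of 0.28, and FDFT1 (24.7 and 53.5 FPKM, 1.09) and MSMO1 (26.4 and 54.5, 1.02) were higher. The fatty acid desaturase SCD lay just inside log2 1 (146 and 284 FPKM, 0.96).

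Hypoxia targets outside glycolysis had a median of 0.26, with ANKRD37 (1.69 and 10.2 FPKM, 2.06, with 909 exon bases shared with UFSP2 on the opposite strand) and NDRG1 (33.5 and 69.9, 1.04) higher, VEGFA (8.57 and 7.33, -0.20) and BNIP3 (10.4 and 10.1, -0.03) level and CA9 below the filter (0.470 and 0.535). STC2 (28.9 and 9.58 FPKM) and DDIT4 (-1.01), the lower members, are also ATF4 targets. Glycolysis genes had a median of -0.10, which changed sign with the scaling. Of 22 members 4.55% were higher and 4.55% lower, against 2.61% and 3.53% of all genes. The brain-type aldolase ALDOC was higher (21.5 and 64.0 FPKM, 1.53), GAPDH was lower (872 and 417, -1.06) and LDHA (120 and 134, 0.16) was level. Of the long RNAs UCA1 (13.1 and 50.6 FPKM, 1.87), MALAT1 (21.9 and 57.0, 1.34) and NEAT1 (15.9 and 34.9, 1.08) were higher, while the compared SNHG genes, hosts of small nucleolar RNAs, all lay below 0, from SNHG17 (-0.78) to SNHG15 (-0.12). The lincRNA AC105460.1 had the highest value of that class, with 28.5 FPKM and 215 (482 and 3004 reads, 2.88), and the antisense RNA AC105460.2, which shares 50 exon bases with it, had 15 and 113 reads.

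Inflammatory and antiviral genes had medians nearer to 0. Among NF-kappa-B targets and chemokines (median -0.29) the chemokine CXCL8 was lower (31.95 and 7.07 FPKM, -2.03) and the inhibitor of the pathway, NFKBIA, was higher (16.7 and 40.3, 1.22). Of 20 interferon-stimulated genes 2 were higher (10.0%, against 2.61% of all genes), led by the RNA sensor DDX58 (3.10 and 9.97 FPKM, 1.42). The most expressed, IFITM3, stood at -0.41. None of 13 genes of MHC class I presentation was past log2 1, with HLA-B highest (69.3 and 98.5 FPKM, 0.50). In the tight junctions CLDN7 was lower (87.1 and 41.4 FPKM, -1.06) and CLDN3 lay just inside log2 1 (16.5 and 32.05, 0.92).

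The study asked about stem-like traits and the drug efflux pump ABCG2. ABCG2 itself was weakly expressed in HCT116, with 0.691 FPKM in adherent cells and 0.897 in spheroids (71 and 76 reads), and the interval of its log2 read ratio, -0.11 to 0.86, covers 0. TOX3, a transcription factor the study examined beside it, had 1 read in adherent cells and none in spheroids, where a count of 0 allows up to 3 reads, so no change could be measured at this depth. WDR5, a shared subunit of the histone H3K4 methyltransferases, stood at 26.02 and 15.5 FPKM (-0.71, interval -0.86 to -0.64). The other subunits and enzymes of that family lay between -0.48 (WDR82) and 0.41 (KDM5B, a demethylase), none past log2 1.

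Of the 20 stem-like markers 12 passed the filter, 1 was higher and none was lower. DCLK1, a tuft and stem cell kinase below the filter, had 1.03 and 0.352 FPKM (303 and 85 reads, interval of the log2 read ratio -1.92 to -1.20). CD24 went from 11.3 FPKM to 34.4 (713 and 1790 reads, 1.53, interval 1.48 to 1.73), and CXCR4 lay just inside log2 1 (2.14 and 5.25, 0.99). CD44 stood at 45.8 and 54.0 FPKM (0.23), PROM1 (CD133) at 4.84 and 5.16 (0.08), ALCAM at 27.9 and 31.7 (0.18) and EPCAM at -0.11. ITGA6 (44.9 and 32.7 FPKM, -0.45) and BMI1 (12.5 and 10.6, -0.22) lay below 0. LGR5, ALDH1A1, SOX2, POU5F1 and NANOG were below 0.7 FPKM in both libraries. Of these, ALDH1A1 (6 and 19 reads, interval 0.56 to 3.55) and SOX2 (16 and 26 reads, 0.03 to 1.98) had intervals above 0. The intervals of LGR5, POU5F1 and NANOG covered 0. Of 10 drug and platinum transporters compared, none was past log2 1: ABCB1 stood at 3.70 and 2.05 FPKM (-0.62), ABCC1 at 20.2 and 20.2, ABCC2 at 8.63 and 15.3 (0.76), the copper and platinum importer SLC31A1 at 18.1 and 14.4 (-0.31) and the exporter ATP7B at 2.56 and 3.52 (0.34).

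LOVO was treated alike, with 1 library a side. Of 432 genes lower in HCT116 spheroids and with mean FPKM of at least 1 in LOVO too, 124 (28.7%) were also lower there past log2 1, and of 209 higher genes 82 (39.2%) were also higher. Over all 11684 genes at that level in both lines, 8.11% were lower and 7.66% higher in LOVO spheroids. The list medians side by side (HCT116, then LOVO) were -1.89 and -0.81 for G2/M, -1.27 and -0.62 for replication, -1.28 and -1.89 for ATF4 targets, -0.57 and 0.30 for ER chaperones, -0.92 and 0.35 for immediate early genes, 0.41 and -0.10 for the mitochondrial genome and 0.28 and 1.90 for cholesterol synthesis. With 1 library a condition, the differences between the lines were not tested.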

How the data were processed

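The deposited values were FPKM per gene, which the authors made from mRNA-seq libraries (SMARTer kit, RNA taken with RNeasy columns) of 2 HCT116 and 2 LOVO samples, 1 library per condition. The authors name edgeR in their methods, and the aligner, counter and strand setting are not given in the sources used here. The submitters' processing notes list the mouse builds GRCm38 and mm10, but all 58735 gene IDs are human and their starts and ends equal those of GENCODE 29 (GRCh38). FPKM times gene length gave whole reads for 100% of values (tolerance 0.01), and these reads are the depths printed here.

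Genes with mean FPKM of at least 1 in the HCT116 libraries were compared as log2(FPKM + 1), spheroids minus adherent, with thresholds of log2 1 and 2. Intervals are exact Clopper-Pearson 95% limits of the read ratio. PCR reads without molecular identifiers are not independent molecules, so intervals and the floor of 3 reads cover counting error only. With 1 library a side no test was run, and the script was tested on simulated data.

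The comparison and the 50 gene lists (1263 of 1266 entries matched) were chosen with earlier results of these data known, as were the motifs. Named genes were the 20 highest and 20 lowest with at least 50 reads in the higher library, the 10 most expressed in each library and those with the largest gain or loss of reads, the 5 highest and 5 lowest non-coding genes, the extreme and most expressed members of each list with members whose role called for a mention, and genes the study names. BOLA2, UBE2S, MRPS6 and TXNIP, and the families and single genes under Other observations, were added after their values were seen. Some genes are not reported here. Promoter windows came from RefSeq (GRCh38.p14, the first window listed per gene, 250 bases before to 50 after the start) and were matched by symbol for 9619 of 14037 genes. Python 3.11.15, numpy 2.4.6, pandas 2.3.3, scipy 1.17.1 and matplotlib 3.10.9 were used.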

Additional observations from a re-analysis of the deposited data

Results flagged for a closer look

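In 38 genes the log2 fold change was past 1 in both colon cancer lines but with opposite signs, against 206 past it the same way. Of 209 genes higher in HCT116 spheroids 21 were lower in LOVO, where 8.11% of all 11684 genes at this level in both lines were lower. Of 432 genes lower in HCT116 spheroids 17 were higher in LOVO, where 7.66% of all were higher. The 12 given here are members of the gene lists or otherwise named. With 1 library a condition in each line, the difference between the lines was not tested, and no group was large enough for a check of single samples.

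Of these 12, 7 were lower in HCT116 spheroids and higher in LOVO spheroids. The neutrophil chemokine CXCL8 stood at -2.03 in HCT116 and 7.44 in LOVO (0.417 and 245 FPKM). The inducible chaperones HSPA1A (-1.39 and 2.27) and HSPA1B (-1.35 and 2.42) are near-identical copies, so they count as 1 signal. The ER folding enzyme PDIA4 stood at -1.58 and 1.01 and the metallothionein MT2A at -1.75 and 1.92. The immediate early genes JUNB (-1.13 and 1.93) and ZFP36 (-2.15 and 1.81) belong to the same direction.

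Higher in HCT116 spheroids and lower in LOVO spheroids were A2M, a protease inhibitor (2.75 and -1.99), the surface protein CD24 (1.53 and -1.88), the growth factor binder IGFBP3 (1.24 and -2.51), the p53 target TP53I3 (1.21 and -1.32) and the BMP decoy receptor BAMBI (1.05 and -1.39). CD24 had 11.3 and 34.4 FPKM in HCT116 and 88.6 and 23.4 in LOVO, so the line with the lower level in adherent cells had the higher level in spheroids.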

How the results depend on the processing

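With 1 library a condition, differences between libraries and between conditions cannot be told apart, no library could be left out, and depth limits weakly expressed genes. No paired analysis was possible because each condition has 1 library. Counts of higher and lower genes past log2 1, then past log2 2, were 367, 495, 31 and 75. They were 771, 745, 142 and 178 with a pseudocount of 0.1, and 837, 788, 162 and 196 with 0.01. Rescaled to TPM they were 1415, 979, 260 and 236, where values grow and the added 1 and the filter weigh less by construction. With mean FPKM of at least 5, 130 and 323 genes passed log2 1 and 12 were higher past log2 2. Among protein-coding genes only, 177 were higher past log2 1 and 13 past log2 2. The next 3 alternatives, and scaling to all reads on genes, were chosen after seeing the data. Scaling to reads outside the mitochondrial genome gave 655 higher genes past log2 1 and 56 past log2 2, and at least 50 reads in the higher library gave 219 and 16. Subtracting the median of equally long coding genes gave 244, 302, 19 and 43. The share of calls that were higher was 42.6%, but 59.1% in TPM, 55.4% scaled to all reads on genes and 62.4% scaled to reads outside the mitochondrial genome. It was 28.7% with mean FPKM of at least 5, 32.4% in protein-coding genes, 35.0% with at least 50 reads and 40.0% with TMM-style scaling. Scaling to all reads or to those outside the mitochondrial genome shifts the median of all genes by 0.10 or 0.16. The cause of these differences in split was not tested. All 12 list medians past 0.5 in size kept their sign under the alternatives run, and 9 of 50 lists, all with smaller medians, changed sign over the scalings, p53 targets, glycolysis and the NOTCH pathway among them. Without the level filter only 8 list medians were past 0.5. Replication-dependent histones then stood at 0.33, TGF-beta and BMP targets at 0.23 and YAP targets at -0.30.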

Other observations

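Several gene families and single genes outside the lists were picked after their values were seen. All 8 condensin subunits, which compact mitotic chromosomes, lay below 0 with a median of -1.48, and 6 were past -1, such as NCAPG (16.2 FPKM in adherent cells and 2.15 in spheroids). Of 19 CENP centromere proteins 11 were lower (median -1.09), though some of them are also in the G2/M list. Of 11 tubulins 4 were lower, with TUBB4B at 270 and 91.9 FPKM. The chromatin protein HMGB2, 1 of 4 lower members among 10 high mobility group genes, stood at -2.22. The histone variant H2AFX, which marks DNA breaks when phosphorylated, stood at 84.4 and 22.8 FPKM (-1.84).

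On the higher side, 8 of 19 mitochondrial tRNA genes were past log2 1 (median 0.98), but they rest on few reads, with the highest, MT-TT, at 6 and 25 reads (2.11), and the intervals of MT-TD (3 and 9 reads) and MT-TV (2 and 8) cover 0. The members with over 1000 reads, MT-TC, MT-TN and MT-TP, stood at 0.74, 0.80 and 0.90. In addition, 3 of 5 CYP4F fatty acid hydroxylases were higher, CYP4F3 at 1.47. The matrix protein SPARC went from 13 to 231 reads (1.76), the cytolytic protein PRF1 from 1.90 to 9.49 FPKM (1.86), the growth factor PDGFA from 4.40 to 15.7 (1.63) and the MHC class II chain HLA-DRA from 7.93 to 20.8 (1.29). Most of the called genes lay in no list, 323 of 367 higher and 334 of 495 lower.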
